A study of Homo sapiens with 2 samples.

Results

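hsa-miR-103a-3p and hsa-miR-107 are a pair of nearly identical human miRNAs that come from hairpins within the pantothenate kinase (PANK) genes. They were taken by name, as every non-control spot that carries either name in both array files, and make up 2 of the 2549 human miRNAs on the array. HepG2, a human hepatocellular carcinoma line, was given an adenoviral vector carrying uc.372 (Ad-uc.372) or its control vector (Ad-NC) for 48 h, and total RNA from each went to 1 Agilent miRNA array. uc.372 is a transcript from an ultraconserved element of the genome. The label of the treated sample has no suffix for overexpression or inhibition, and overexpression is taken from the title of the series and the text of the study, on which each direction below rests. Both groups carry an adenovirus, and cells without a vector were not analysed here. There was 1 array per condition, so no test across samples and no p-value can be given, and precision is limited by that number.

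A miRNA finds its target mRNAs mainly through its seed, bases 2 to 8 from the 5′ end, and lowers their translation and stability within the Argonaute complex. The miR-103/107 pair is known for reducing insulin sensitivity in liver and adipose tissue of mice, where caveolin-1, an organiser of the insulin receptor at the cell surface, is a target. It is also known to target Dicer, the enzyme that cuts miRNA hairpins into their mature form. The host genes encode pantothenate kinases, which catalyse the entry step of coenzyme A synthesis, and the mRNAs of these hosts were not measured by this array.

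The mature sequences show how little separates the pair, with the seed in capitals. They were taken from RefSeq on GRCh38.p14, in which both names matched.

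hsa-miR-103a-3p: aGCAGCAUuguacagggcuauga
hsa-miR-107: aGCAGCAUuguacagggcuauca

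Of their 23 bases 22 are identical, and the difference from miR-103a-3p to miR-107 is G22C, counted from 1 at the 5′ end of the miRNA. Among the 2370 mature human miRNA names in the RefSeq table, these 2 alone carried the seed GCAGCAU. The longest run of bases shared by the pair was 21, against 11 between miR-107 and the most similar other miRNA on the array, hsa-miR-4289, and 9 between miR-103a-3p and that miRNA. The array carries 2 probes under each name. The probe sequences are not given in the sources used here, so how far each probe tells the pair apart was not tested. The signals of the pair therefore cannot be taken as independent of each other.

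The pair comes from 3 hairpins on GRCh38.p14, shown here with the mature miRNA in capitals because the rest of each hairpin differs more than the mature strand does. MIR103A1 lies at chr5:168560896-168560973 on the minus strand, inside PANK3. MIR103A2 lies at chr20:3917494-3917571 on the plus strand, inside PANK2. MIR107 lies at chr10:89592747-89592827 on the minus strand, inside PANK1. Each lies on the strand of its host gene, and all are known to be intronic.

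MIR103A1: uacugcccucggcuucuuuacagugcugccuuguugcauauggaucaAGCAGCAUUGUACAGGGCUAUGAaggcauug
MIR103A2: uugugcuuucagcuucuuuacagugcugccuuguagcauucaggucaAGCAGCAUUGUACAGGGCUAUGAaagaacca
MIR107: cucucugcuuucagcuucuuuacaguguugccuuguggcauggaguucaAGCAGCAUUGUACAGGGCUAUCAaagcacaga

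Since MIR103A1 and MIR103A2 give the same mature miR-103a-3p, its signal sums the output of both, and the array cannot divide it between PANK3 and PANK2.

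Both miRNAs were well above background in every spot. Each had 2 probes of 10 spots, and all 20 spots of each miRNA passed the software's limit on both arrays, with 0 outlier spots. The limit corresponds to a background-subtracted signal of 21.1 with Ad-NC and 17.3 with Ad-uc.372. The means of the 4 probes lay between 833 and 2533. The local background around these spots had raw medians between 17 and 24. These values are brightness on 1 array, and the brightness of different probes does not tell which miRNA was more abundant.

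miR-107 was dimmer with Ad-uc.372 in all 20 of its positions before any scaling. For how many other miRNAs this held was not counted. On the brighter of its probes, A_25_P00011069, the processed signal with Ad-NC ran from 2309 through a median of 2531 to 2854. With Ad-uc.372 it ran from 1812 through 1999 to 2295. The brightest spot with Ad-uc.372 was thus dimmer than the dimmest with Ad-NC, and the groups of spots did not overlap. The mean was 2533 ± 161 (SD over 10 spots) with Ad-NC and 2017 ± 156 with Ad-uc.372, or 79.6% of the control.

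On the other miR-107 probe, A_25_P00011068, the signal ran from 901 through 959 to 991 with Ad-NC. With Ad-uc.372 it ran from 737 through 844 to 912. Only 1 of the 10 spots with Ad-uc.372 reached the dimmest control spot. The mean was 951 ± 28.8 with Ad-NC and 833 ± 60.7 with Ad-uc.372, or 87.6% of the control. Among 393 probes measured on both arrays (well above background in at least 50% of spots), 4.58% were lower with Ad-uc.372 without any overlap of spots before scaling, which gives the background for the single miR-107 probe that did so.

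miR-103a-3p showed wider spots and no such separation. On its brighter probe, A_25_P00011004, the signal ran from 1778 through a median of 2367 to 2788 with Ad-NC. With Ad-uc.372 it ran from 1585 through 2353 to 2814. The spots of the arrays lay over each other, and both the dimmest and the brightest of all were spots with Ad-uc.372. The mean was 2362 ± 341 (SD over 10 spots) with Ad-NC and 2264 ± 415 with Ad-uc.372, or 95.8% of the control.

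The other miR-103a-3p probe, A_25_P00011005, behaved in the same way. Its signal ran from 1002 through 1243 to 1369 with Ad-NC and from 906 through 1190 to 1411 with Ad-uc.372. The mean was 1220 ± 115 with Ad-NC and 1178 ± 192 with Ad-uc.372, or 96.5% of the control. On each of the 2 probes, 8 of the 10 spots with Ad-uc.372 were at least as bright as the dimmest control spot.

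**Figure D1:**
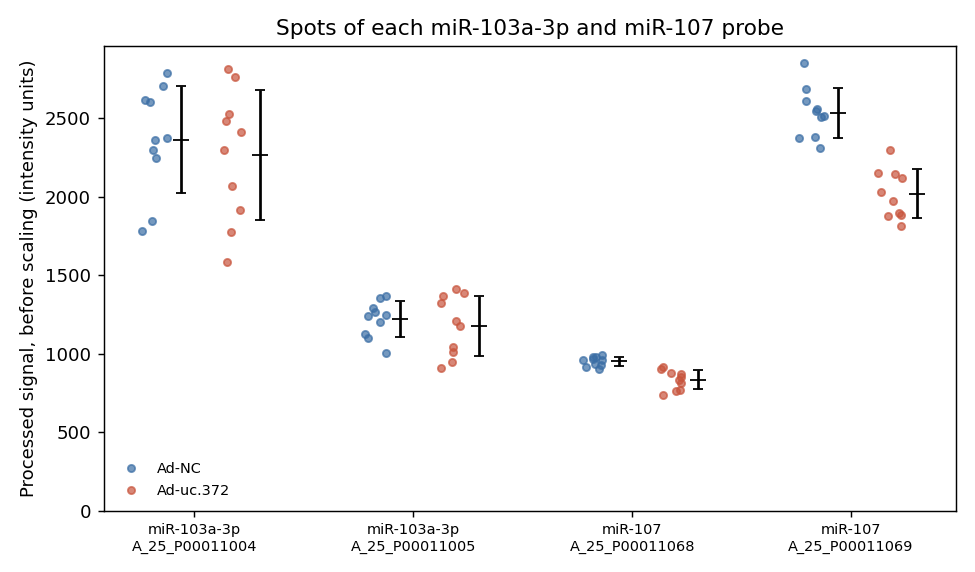
Processed signal of each spot (vertical axis, intensity units before scaling) for the 2 probes of miR-103a-3p and the 2 probes of miR-107, with Ad-NC in blue and Ad-uc.372 in red; black bars are the mean ± SD over 10 spots. The spots of the miR-103a-3p probes overlap between the arrays, whereas those of A_25_P00011069 for miR-107 do not, with 2309 as the dimmest with Ad-NC and 2295 as the brightest with Ad-uc.372.

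To compare the arrays, signals were set to log2 and lowered by a reference, the 75th percentile of each array among the probes it shared with the other array as well above background. This reference lay at a signal of 305 for Ad-NC and 356 for Ad-uc.372, so scaling moves every log2 difference down by 0.23. The level of miR-107, the mean of its probes on this log2 scale, was 2.35 with Ad-NC and 1.86 with Ad-uc.372. The log2 difference was -0.49, or 1.40-fold lower with Ad-uc.372, with a combined spot SD of 0.13. The level of miR-103a-3p was 2.47 with Ad-NC and 2.17 with Ad-uc.372, a log2 difference of -0.29 or 1.23-fold lower, with a combined spot SD of 0.32. Both directions turn when the percentile is taken over every probe on the array, named all-probe scaling here, to 0.030 for miR-107 and 0.23 for miR-103a-3p. Most probes are dim and were raised to the limit, so that reference is the limit itself, 21.1 and 17.3, and these values carry the ratio of the limits and no scale taken from measured probes. Without scaling the log2 differences were -0.26 and -0.066. The combined spot SD takes the root of the sum of the spot variances from the arrays and covers the spots only, not the culture, labelling or hybridisation. The difference of miR-107 exceeded it, and that of miR-103a-3p did not, although it exceeded the SD of 0.14 found when spots were paired by position. These SDs describe single spots, not means over spots. The 2 miRNAs with the nearest differences to miR-107 exceeded theirs too, miR-320c at -0.49 (SD 0.18) and miR-151b at -0.48 (SD 0.15). The share of all measured miRNAs that exceeded their own spot SD was not counted.

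Of the pair, 0 reached 1.5-fold, the threshold in the methods. Of the 229 miRNAs measured on both arrays, 9 did (3.93%), of which 6 were lower (2.62%) and 3 higher with Ad-uc.372. With all-probe scaling, whose reference is the limit, this split was 42 higher and 2 lower. A lower value was common under the scaling used, since 73.8% of the 229 miRNAs had one, and their median log2 difference was -0.17. Against that median miR-107 lay lower by a log2 value of -0.32 and miR-103a-3p by -0.13. miR-107 had the 20th lowest difference of the 229, and miR-103a-3p the 69th. A change of scale that adds a constant leaves these places as they are.

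**Figure D2:**
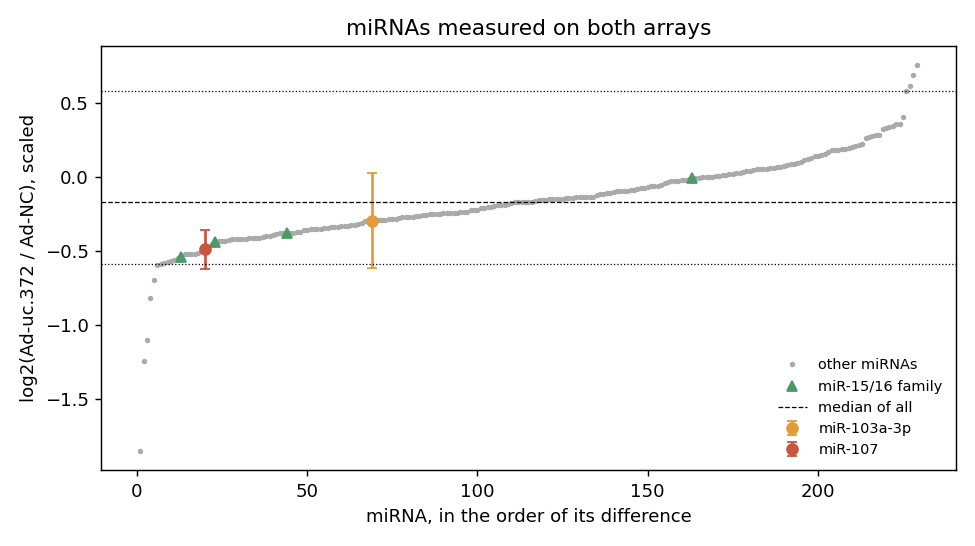
Scaled log2 difference between the arrays (vertical axis, Ad-uc.372 over Ad-NC) for the 229 miRNAs measured on both, in order; the dotted lines mark 1.5-fold, the dashed line the median of all (-0.17), the bars on miR-103a-3p and miR-107 the combined spot SD, and green triangles the miR-15/16 family. miR-107 is 20th from the low end and miR-103a-3p 69th, neither past 1.5-fold, and with all-probe scaling both values are above 0.

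The software's own summary per miRNA gave a like order before scaling. Its total signal for miR-107 was 493 ± 38.3 (the software's error estimate) with Ad-NC and 403 ± 30.9 with Ad-uc.372, a difference of 89.6 against a combined error of 49.3. For miR-103a-3p it was 506 ± 37.9 and 486 ± 36.6, a difference of 19.9 against 52.7. The difference of miR-107 was therefore larger than the combined error, and that of miR-103a-3p was smaller. At each spot of the pair, however, the software's error was close to 10.0% of the signal, whatever the spread between spots. The comparison is thus no separate measure of precision, and the share of all miRNAs past their combined error was not counted.

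The deposited log2 values, normalized by the authors, placed miR-107 past the 1.5-fold threshold. They were 7.56 with Ad-NC and 6.94 with Ad-uc.372 for miR-107, a log2 difference of -0.62 or 1.53-fold lower. For miR-103a-3p they were 7.60 and 7.21, a difference of -0.39 or 1.31-fold lower. Of the 279 miRNAs that the software detected on both arrays, 24 (8.60%) were at least 1.5-fold lower in these values, and their median was -0.26. Against that median miR-107 lay at -0.36, close to its place in the scanner values, and was the 22nd lowest. The kind of normalization behind these values is not given in the sources used here. For the pair they equal the software's total signal moved by a constant. With the total signal miR-107 also lay at -0.36 against the median of the 279, and the gap of miR-107 minus miR-103a-3p was -0.23 in both. They are therefore no separate measurement, and passing 1.5-fold depends on that constant.

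The pair was then compared probe by probe and position by position, since it shares all but 1 base. The difference of miR-107 minus that of miR-103a-3p was -0.20 on the log2 scale, or 1.15-fold, a value that no constant scaling moves. The combined spot SD of this gap was 0.34, so it was smaller than the spread of unpaired spots. With the SDs of spots paired by position the combined SD was 0.19, about the size of the gap. At the level of probes, the scaled log2 differences were -0.56 and -0.42 for miR-107 and -0.30 and -0.29 for miR-103a-3p. In each of the 4 combinations of a miR-107 probe with a miR-103a-3p probe, the miR-107 probe was the lower, by -0.27 to -0.12. These combinations reuse the same 2 probes of each miRNA, so they are not separate comparisons. The probes of miR-103a-3p differed from each other by 0.0074, and those of miR-107 by 0.14. Among the 150 miRNAs with exactly 2 measured probes, the probes of the same miRNA differed by a median of 0.11, and by at least as much as the gap between miR-107 and miR-103a-3p in 46 of them (30.7%). Those are differences between single probes, whereas the gap is between means of 2 probes, so that share is not a like-for-like background for it.

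Both arrays have the same print layout, so each spot has a partner with the same probe at the same row and column. Before scaling, 20 of 20 positions of miR-107 and 13 of 20 of miR-103a-3p were dimmer with Ad-uc.372. How many of the measured miRNAs were dimmer in every position before scaling was not counted. After scaling all 20 positions of each miRNA were dimmer, as was every position of 27.5% of the measured miRNAs, and with all-probe scaling this holds for neither. The scaled log2 ratios ran from -0.72 through a median of -0.49 to -0.27 for miR-107, and from -0.53 through -0.30 to -0.081 for miR-103a-3p. The ranges overlapped. At least 1.5-fold lower were 5 positions of miR-107, all on A_25_P00011069, whose mean was 1.47-fold lower, and 0 of miR-103a-3p. The share of all measured positions past 1.5-fold was not counted. After scaling, none of the spots with Ad-uc.372 reached the dimmest control spot on either miR-107 probe, which was also the case, in this direction, for 21.1% of all measured probes. For each miR-103a-3p probe 6 of 10 did reach it.

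The wide spots of miR-103a-3p were wide in the same places on both arrays. Over its 10 positions, log2 signals on the arrays had a Pearson r of 0.85 on A_25_P00011004 and 0.84 on A_25_P00011005. For miR-107 r was 0.068 on A_25_P00011069 and 0.14 on A_25_P00011068. Over 303 probes with all spots well above background and at least 8 shared positions, the median r was 0.35. These r values describe positions that share a slide and a print layout. As a result, pairing by position narrowed the spread of miR-103a-3p to an SD of 0.14 on the log2 scale, against a combined spot SD of 0.32, and hardly that of miR-107, at 0.12 against 0.13. The coefficient of variation of spots was 14.4% and 9.42% with Ad-NC and 18.3% and 16.3% with Ad-uc.372 on the miR-103a-3p probes. It was 6.35% and 3.03%, then 7.72% and 7.29%, on those of miR-107, against medians of 10.6% and 10.8% over all measured probes.

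The positions of the pair are not spread alike over the array. When its rows were divided into 8 bands of 48, miR-103a-3p had 3 positions in the last band and miR-107 had 0. In that band 301 positions of other probes had a mean log2 signal of -0.12 with Ad-NC and -0.16 with Ad-uc.372 relative to the mean of each probe. The first 2 bands held 9 positions of miR-107 and 2 of miR-103a-3p. The ratio between the arrays varied little with the bands, and its band means for the other probes lay between -0.053 and 0.057 around each probe's mean. With these band means subtracted, the log2 difference was -0.48 for miR-107 and -0.29 for miR-103a-3p, and the gap was -0.19, close to the values without this step. In 5 of the 6 bands that held both miRNAs, the mean of miR-107 was the lower, by unequal amounts. In rows 1 to 48 it was -0.55, against -0.53 at the 1 position of miR-103a-3p there. In rows 49 to 96 it was -0.50, against -0.43 at 1 position. In rows 145 to 192 the 1 position of miR-107 had -0.32, against -0.23. In rows 193 to 240 the means were -0.53 and -0.21, over 4 positions each, and in rows 289 to 336 -0.49 and -0.38. The exception was rows 241 to 288, with -0.39 for miR-107 and -0.41 for miR-103a-3p. Whether the gap holds at matched rows was not tested.

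**Figure D3:**
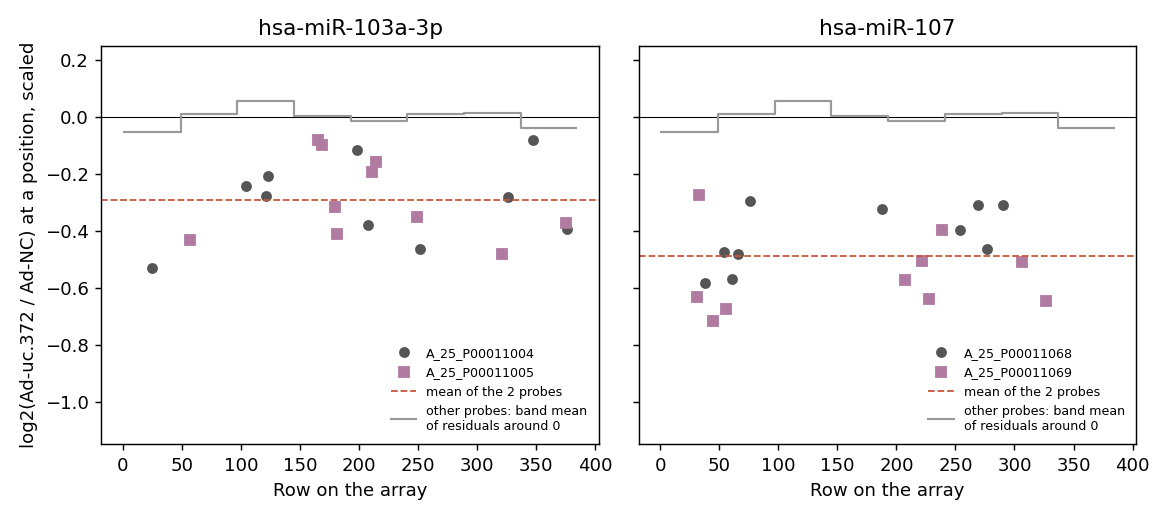
Scaled log2 ratio of Ad-uc.372 over Ad-NC (vertical axis) at each of 20 positions of miR-103a-3p (left) and miR-107 (right) against the row on the array (horizontal axis); symbols tell the 2 probes of each miRNA apart, dashed lines are the means (-0.29 and -0.49), and the grey line is the mean residual of other probes in 8 bands of rows. All 40 ratios lie below 0 under this scaling, which turns for the means with all-probe scaling, and the grey line stays between -0.053 and 0.057.

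The other products of these hairpins gave no signal to compare. hsa-miR-103a-2-5p, the opposite arm of MIR103A2, had 3 probes, and its 20 positions, outlier spots included, gave signals between -7.09 and 16.3. hsa-miR-103b, which is transcribed from the opposite strand at both miR-103a loci, had 2 probes and signals between -9.34 and 5.30 over 20 positions. Of these spots, 0 were well above background on either array. The sequence of miR-103b is the reverse complement of miR-103a-3p over all 23 bases.

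hsa-miR-103b: uCAUAGCCcuguacaaugcugcu

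Its capitals again mark bases 2 to 8, which give it another seed. The array holds no entry named for the opposite arm of MIR103A1 or of MIR107. For each hairpin, the measurement thus rests on the 3′ arm.

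The pair overlaps at its 5′ end with the miR-15/16 family, known for targets in the cell cycle. Bases 1 to 7 of the pair, AGCAGCA, are bases 2 to 8 of that family, so its seed is the same run shifted by 1 base. In the RefSeq list, 7 mature miRNAs carried this shifted seed, and all 7 are on the array. The measured ones are shown with the shared run in capitals.

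hsa-miR-15a-5p: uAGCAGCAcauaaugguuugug
hsa-miR-15b-5p: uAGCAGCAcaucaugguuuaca
hsa-miR-16-5p: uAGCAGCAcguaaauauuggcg
hsa-miR-195-5p: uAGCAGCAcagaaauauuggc

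After this run their letters part from those of the pair. Of the 7, 4 were measured on both arrays, and miR-424-5p, miR-497-5p and miR-6838-5p had no probe with at least 50% of its spots well above background. One probe of miR-497-5p had 2 of 9 such spots with Ad-NC and 1 of 9 with Ad-uc.372. The 4 had a median log2 difference of -0.41, against -0.17 for all measured miRNAs, and 0 passed 1.5-fold. That median was 0.11 with all-probe scaling. miR-15a-5p had a log2 difference of -0.54 with a combined spot SD of 0.13, and both of its probes were lower, at -0.56 and -0.52. miR-15b-5p had -0.37 (SD 0.16), from probes at -0.50 and -0.25. miR-16-5p had -0.0065 (SD 0.34), and its probes differed in sign, at 0.13 and -0.14. miR-195-5p had -0.44 (SD 0.27) from 1 of its 2 probes, with mean signals of 26.7 and 22.9 that lie close to the limit. The difference of miR-107 thus lay between those of miR-15a-5p and miR-195-5p, and that of miR-103a-3p between those of miR-15b-5p and miR-16-5p. Each of these gaps was smaller than the larger combined spot SD of the miRNAs it separates.

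**Figure D4:**
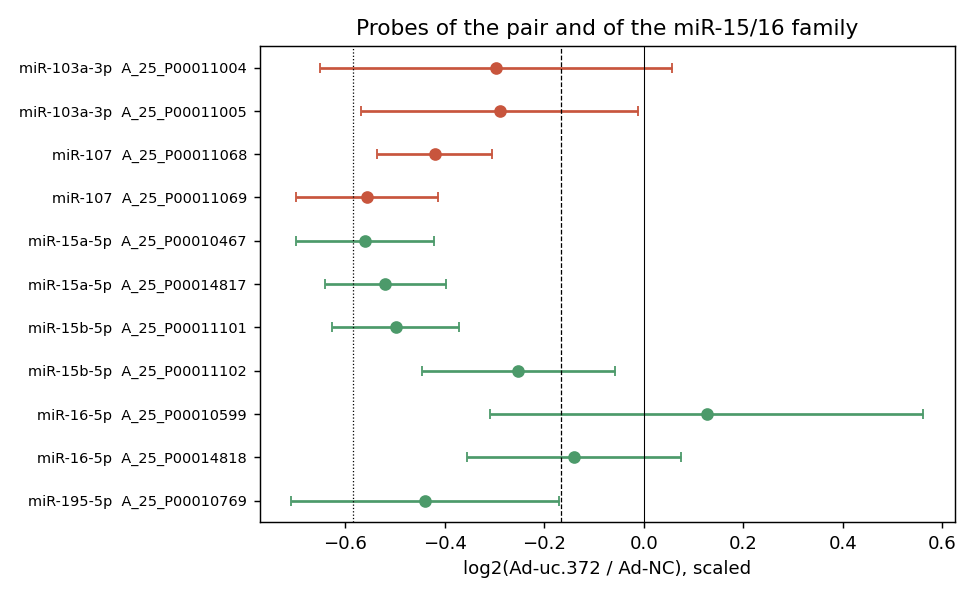
Scaled log2 difference (horizontal axis, Ad-uc.372 over Ad-NC) of each probe of the pair (red) and of the measured probes of the miR-15/16 family (green); bars are the combined spot SD, the dotted line marks 1.5-fold lower and the dashed line the median of all measured miRNAs (-0.17). The miR-107 probes lie at -0.56 and -0.42, the miR-103a-3p probes at -0.30 and -0.29, and all-probe scaling adds 0.52 to every point.

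Other miRNAs known from work on insulin action and liver metabolism were described as a list of 18, all on the array. Of these 10 were measured on both arrays, 9 with a lower and 1 with a higher value with Ad-uc.372, and their median log2 difference was -0.26. Among all 229 measured miRNAs 73.8% were lower, with a median of -0.17, and these signs depend on the scaling. Of the 10, only let-7b-5p passed 1.5-fold, with -0.82 from 1 probe, against 3.93% of all. miR-122-5p, the miRNA that defines hepatocytes, was not well above background, with mean signals of at most 5.09 with Ad-NC and 5.08 with Ad-uc.372, nor was miR-885-5p. The liver miRNAs miR-192-5p and miR-194-5p were measured, with log2 differences of 0.34 (combined spot SD 0.37) and -0.21. The probes of miR-192-5p differed in sign, at -0.16 and 0.84. Markers of blood, mesenchymal, endothelial, muscle or nerve cells, 9 in all, stayed below the limit for well above background throughout, and their highest mean signal was 9.94.

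By the size of the difference over the 2 arrays, miR-6812-5p and miR-1275 were the nearest to miR-103a-3p, each at -0.29, within 0.00026 and 0.00084 of it. The nearest to miR-107 were miR-320c at -0.49 and miR-151b at -0.48, each from 1 probe, within 0.0044 and 0.0077. Likeness over 2 arrays says little, since 34 other miRNAs lay within 0.05 of miR-103a-3p and 9 within 0.05 of miR-107.

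**Figure D5:**
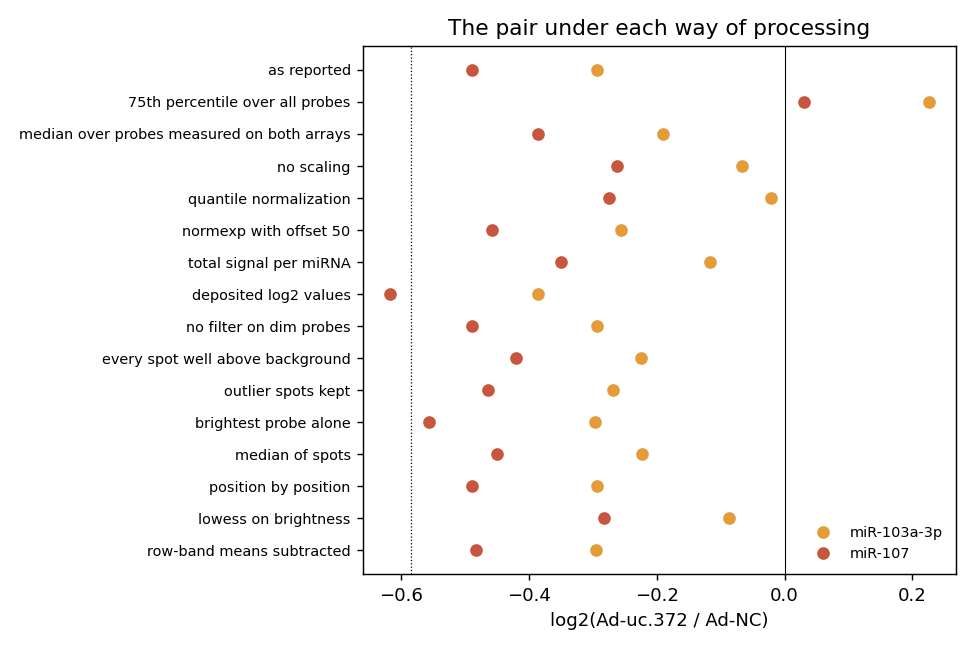
Log2 difference of Ad-uc.372 over Ad-NC (horizontal axis) for miR-103a-3p (orange) and miR-107 (red) as reported and under each of 15 alternatives (vertical axis); the dotted line marks 1.5-fold lower. miR-107 lies below miR-103a-3p in every one, an order that a constant scaling cannot change. Both are above 0 with all-probe scaling, and miR-107 passes 1.5-fold with the deposited log2 values, at -0.62.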

How the data were processed

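Total RNA of HepG2 cells with Ad-NC or Ad-uc.372 was Cy3-labelled and measured on Agilent human miRNA arrays (V21.0), 1 array each, which shared a slide and a scan. The authors extracted spots with Agilent Feature Extraction (10.10 per the processing notes, 11.5.1.1 per the file headers) and deposited background-subtracted spot intensities, not normalized between arrays. They also deposited log2 values per miRNA, normalized with GeneSpring GX. Their column medians were -4.71 and -5.04, the value shared by undetected miRNAs, and scale and direction were read by setting them against the scanner files.

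Each array had 50980 non-control spots, of which 1273 and 1657 were outliers and left out. Spots under the lowest signal well above background were raised to it, log2 spots were averaged per probe, and the 75th percentile over probes well above background on both arrays (at least 50% of spots) was subtracted. Differences of a miRNA were averaged over such probes. Members and lists were chosen with earlier results of these data known. Named were the pair, its hairpin products, the shifted-seed list, the 2 nearest differences to each member, and list members past 1.5-fold. The rule on probes that pair with a member could not be applied without probe sequences. With 1 array each, the place on the slide and the vector cannot be told apart. The steps were tested on simulated data with changes larger than those of the pair, so the recovery of changes as small as these was not tested.

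Python 3.11.15, numpy 2.4.6, pandas 2.3.3, statsmodels 0.14.6, matplotlib 3.10.9, R 4.3.3 and limma 3.58.1 (normexp) were used. Sequences and hosts came from RefSeq on GRCh38.p14, while the array grid is annotated to hg19.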

Additional observations from a re-analysis of the deposited data

How the results depend on the processing

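No paired analysis was possible because 1 array per vector leaves no replicates to pair; spots were paired by position. Of 16 alternatives, 14 were listed at the start, and lowess on brightness and the subtraction of row-band means were added after seeing the data. Except where the construction gives it, the cause was not tested. The gap of miR-107 minus miR-103a-3p stayed within its spot SD in all 15 alternatives run for it, from -0.26 to -0.19. Part of this count was fixed in advance. All-probe scaling, the median and no scaling only add a constant. The changed filters and the pairing by position left the spots of the pair as they were. The gap stayed at -0.20 in these, and the total signal and the deposited values both gave -0.23. miR-103a-3p stayed within its spot SD in 14 of 15, and moved to 0.23 with all-probe scaling (75th percentile of every probe, which is the limit itself, so such values carry the ratio of the limits). miR-107 moved by more than its SD in 5 of 15, to 0.030 with all-probe scaling, -0.26 without scaling, -0.27 with quantile normalization, -0.35 with the total signal per miRNA and -0.28 with lowess. These counts rest on unlike SDs, 0.13 for miR-107 and 0.32 for miR-103a-3p. Without scaling both shifted by the same 0.23, which exceeds only the SD of miR-107. The median of the miR-15/16 family moved to 0.11 with all-probe scaling and -0.18 without scaling. The 9 miRNAs past 1.5-fold, of 229, became 44 with all-probe scaling, 3 with normexp and 3 at 2-fold, a stricter threshold. They became 30 with the total signal and 32 with the deposited log2 values, each out of a larger set of 279 detected miRNAs. The split of 3 higher to 6 lower became 42 to 2, 4 to 5 with the median, 6 to 4 without scaling, 4 to 4 with quantile normalization, 5 to 4 with lowess, 22 to 8 with the total signal and 8 to 24 with the deposited values. Against the median of all measured miRNAs, miR-107 lay at -0.36 to -0.27 and miR-103a-3p at -0.14 to -0.017 over the 15 alternatives. Signal over background does not limit the pair, but leaves its opposite arms and miR-103b without a difference.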
